A study of Mus musculus with 18 samples.

Results

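The genes described here are the matrix metalloproteinases (Mmps), the Adamts proteases, the Adamts-like proteins and their tissue inhibitors (Timps) in mouse RPE/choroid, the retinal pigment epithelium with the vascular layer behind it. They were chosen by gene symbol alone, from probe sets annotated to 1 symbol, which were averaged where a gene had several. The rule found 42 of the 18194 genes measured: 18 Mmp, 15 Adamts, 5 Adamtsl and 4 Timp genes, covered by 78 probe sets. RNA came from male C57BL6/J mice, aged 2 months in the sample labels, and was measured on 18 Affymetrix Mouse Genome 430 2.0 arrays. Each animal had received 1 intravitreal injection of 1 μL, holding balanced salt solution (BSS, the control), 10 μg of dexamethasone (Dex, spelled DEX in the labels) or 25 μg of triamcinolone acetonide (TAA). Eyes were collected 7 or 30 days later, which gave 6 groups of treatment and day with 3 arrays apiece. All groups, BSS included, share the injection itself. As animals were injected on the same day, the day of collection holds the time since injection, the age and the session of dissection. These cannot be told apart. All values are log2 expression from which the authors had subtracted the median of that probe set over the 18 arrays, so they show differences between arrays and hold no level of a gene.

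Mmps are zinc proteases that cut collagens, laminins and other matrix proteins, and many are made as inactive precursors. Adamts proteases cut proteoglycans such as aggrecan and versican, or trim the ends of procollagens, while the Adamts-like proteins keep the binding modules of that family and lack the protease. Timps bind and block these enzymes. In the eye, the balance between them shapes Bruch's membrane, the sheet between RPE and choroid, in which the RPE deposits Timp3, a gene mutated in Sorsby fundus dystrophy. Glucocorticoids such as Dex and TAA are known from other tissues to lower the transcription of several Mmps through the factor AP-1. Whether these genes differed after a steroid or between the days of collection is the question that the comparisons below address.

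The Mmp genes that varied most between arrays here, Mmp12, Mmp3 and Mmp13, lie in 1 cluster. By the RefSeq annotation of assembly GRCm38.p6, 9 Mmp genes lie on chromosome 9 between positions 7272514 and 7699585, a stretch of 427072 bases. Their order is Mmp13, Mmp12, Mmp1b, Mmp3, Mmp1a, Mmp10, Mmp8, Mmp20 and Mmp7. The 120 bases before the annotated start of Mmp3, Mmp13, Mmp12 and Mmp10 are shown because the first 3 had the most negative differences between the days among the members, whereas the value of Mmp10, a close relative of Mmp3, was near 0. All are on the + strand, from RefSeq, and capitals mark the letters of the AP-1 motif, TGANTCA. They span chr9:7445702-7445821 for Mmp3, chr9:7272394-7272513 for Mmp13, chr9:7347254-7347373 for the downstream start of Mmp12 and chr9:7502222-7502341 for Mmp10.
Mmp3: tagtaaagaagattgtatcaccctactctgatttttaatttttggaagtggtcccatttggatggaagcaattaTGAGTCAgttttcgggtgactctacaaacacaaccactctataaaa
Mmp13: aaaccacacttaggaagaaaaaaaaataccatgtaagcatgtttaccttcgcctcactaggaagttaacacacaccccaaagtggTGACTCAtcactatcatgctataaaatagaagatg
Mmp12: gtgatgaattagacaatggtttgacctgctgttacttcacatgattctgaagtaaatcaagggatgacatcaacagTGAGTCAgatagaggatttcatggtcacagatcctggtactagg
Mmp10: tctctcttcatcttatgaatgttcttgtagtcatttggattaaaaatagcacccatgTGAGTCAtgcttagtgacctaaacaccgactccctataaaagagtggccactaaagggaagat

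A window of 250 bases before to 50 bases after the start was at hand for 27 of the 42 members. Searched on both strands, TGANTCA was in a window of 8 of these 27 members against 8.97% of 27025 genes, and all 8 were Mmp genes of the chromosome 9 cluster (Mmp1a, Mmp1b, Mmp3, Mmp7, Mmp10, Mmp12, Mmp13 and Mmp20). The annotation lists another, upstream start for Mmp12 whose window did not hold it and is not printed here. The letters TATAAA were in a window of 11 of the 27 members against 15.7% of genes. These are matches of letters only. Of the 8, Mmp3, Mmp12, Mmp1a, Mmp10, Mmp1b and Mmp7 carry TGAGTCA. Their differences between the days were -0.72, -0.72, -0.15, -0.01, -0.01 and 0.04 on the log2 scale. Mmp13 carries TGACTCA, with a difference of -0.53, and Mmp20 carries TGAATCA, with 0.05. Whether the letters bear on these values was not tested.

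Before the comparisons, the arrays themselves need describing, because some stood apart. The mean of 9 rod photoreceptor genes, transcripts of the retina that dissection removes, ranged over the 18 arrays from -1.83 to 4.04 on the log2 scale. It was above 1.68 in 8 arrays and below 0.23 in the other 10. The high arrays were replicates 1 and 2 of DEX day 7, replicate 3 of TAA day 7, replicates 1 and 3 of BSS day 30, replicate 3 of DEX day 30, and replicates 1 and 2 of TAA day 30. The median over 9 arrays was -0.46 at day 7 and 2.90 at day 30. For that reason some counts below were also made without those 8 arrays and with the rod mean as a covariate. They are the unadjusted counts and the lean between the days, and the unadjusted counts of each steroid against BSS at day 30. The count called between the days is given without those arrays only. Neither form is given for the unadjusted steroid counts of day 7, the lean at day 30, the F-test or Dex against TAA. The mean of 8 RPE genes (Rpe65 and others) stayed between -0.25 and 0.21. The values hold no level, so whether the RPE markers are present was not shown by them. In a piece of whole tissue, fewer cells of a type and less RNA per cell cannot be told apart. The members were spread widely: the SD over the 18 arrays ran from 0.08 for Adamts18, at the 8.28th percentile of all genes, to 0.84 for Mmp12, at the 98.2nd. Replicate 1 of BSS day 30 held the lowest value of 16 of the 42 members and of 12.3% of all genes.

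The comparison between the days held the single member called in any of the comparisons. Averaged over the 3 treatments, Adamts4 rose by 0.51 (SE 0.10) on the log2 scale from day 7 to day 30, a 1.42-fold difference with an adjusted p of 0.0454 in limma. It was the sole member called after Benjamini-Hochberg adjustment over all genes, at an adjusted p under 0.05, where 0.429% of all genes were called. At an unadjusted p of 0.05 or less, 12 of the 42 members were counted against 15.3% of all genes. Of these, 3 had higher values at day 30 (6.10% of all genes) and 9 had lower values (9.17% of all genes). Lower values were common in the families whether tested or not: 15 of 18 Mmp genes and all 4 Timp genes had a negative difference, and 11 of the 42 members a positive one, against 42.7% of all genes. The median difference was -0.08 over the members and -0.02 over all genes. That lean was not there without the 8 arrays rich in rod transcripts: 21 members were then higher and 21 lower, with a median of 0.00, where 51.5% of all genes were higher. The unadjusted threshold was then passed by 3 members (Adamts4, Adamts15 and Adamts7) against 4.76% of all genes. With the rod mean as a covariate, 7 members passed it against 1821 of the 18194 genes, and 14 of 42 had a positive difference against 50.2%. Other tissues moved between the days as well: all 6 lens genes were higher at day 30, 5 past the unadjusted threshold, with means from -2.19 to 1.44 at day 7 and from -0.47 to 3.43 at day 30. All 7 endothelial genes were lower, 2 past it, with means from -0.31 to 0.40 and from -0.72 to 0.20. Of 6 surface epithelium genes 5 were higher at day 30, 0 past it, with means from -2.70 to 2.12 and from -2.63 to 3.33. Their part in the values of the members was not tested.

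**Figure D1:**
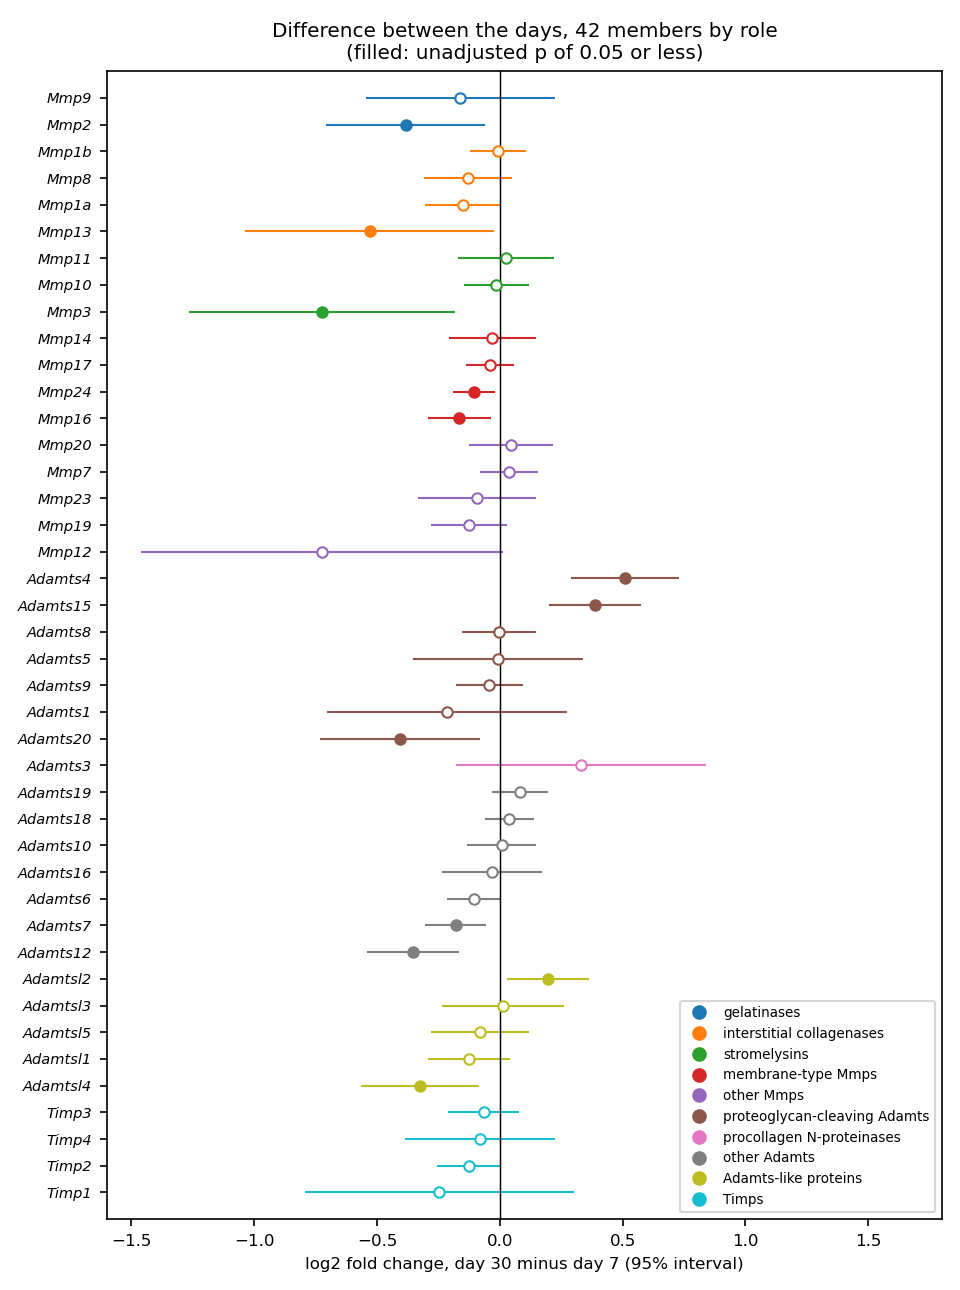
Difference between the days for the 42 members, ordered by role. The x axis is the log2 fold change of day 30 minus day 7 over the 3 treatments, points are estimates and lines their 95% intervals. Filled points have an unadjusted p of 0.05 or less, 12 in all, of which 9 lie left of 0. Adamts4 at 0.51 and Adamts15 at 0.39 lie farthest right among them, and Mmp3 at -0.72 farthest left.

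Among the proteases that cut proteoglycans, Adamts4 encodes an aggrecanase that opens aggrecan and other proteoglycans of this kind. In the BSS arrays of day 7 its values were 0.05, -0.47 and -0.22, in the DEX arrays -0.24, -0.14 and -0.32, and in the TAA arrays -0.15, -0.04 and -0.56. At day 30 they were -0.18, 0.44 and 0.19 after BSS, 0.32, 0.61 and 0.20 after Dex, and 0.11, 0.37 and 0.43 after TAA. All 9 arrays of day 7 lay at or below 0.05, and 8 of the 9 arrays of day 30 lay above that. The exception was replicate 1 of BSS day 30. Both probe sets of the gene gave similar differences of 0.50 and 0.52. Within the treatments the difference was 0.36 in BSS, 0.61 in Dex and 0.56 in TAA arrays (SE 0.18 each). The value was 0.65 (SE 0.13) without the arrays rich in rod transcripts, a fit that leaves 1 array in some groups and in which Adamts4 was not called. With the rod mean as a covariate it was 0.60 (SE 0.09). The call itself was narrow: it held without replicate 1 of BSS day 7, replicate 1 of BSS day 30 or replicate 2 of BSS day 30, and was lost without any other single array, with adjusted p from 0.0517 to 0.105.

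Adamts15, which cuts versican and aggrecan, had the same direction and did not pass the adjusted threshold in the fit of all arrays. Its values at day 7 ran from -0.79 to 0.12 with a median of -0.21, and at day 30 from -0.08 to 0.43 with a median of 0.12. The ranges overlap, and the lowest array was replicate 2 of TAA day 7, where the mean of 6 surface epithelium genes was also lowest, at -2.70. Over the 18 arrays Pearson's r of Adamts15 with that mean was 0.583, and with the mean of 8 neutrophil genes 0.545. The part of such genes in its values was not tested. The difference of Adamts15 was 0.39 (SE 0.09, unadjusted p = 0.000549, adjusted p = 0.0721). The adjusted p was under 0.05 in 4 of 27 alternatives, among them quantile normalization, where it was 0.0402 and Adamts4 was not called. It was uneven between treatments, at 0.12 in BSS, 0.33 in Dex and 0.71 in TAA arrays (SE 0.15 each). In limma's moderated F-test over all groups, 6 members reached an unadjusted p of 0.05 or less (5.29% of all genes) and 0 were called (0.0495%). Adamts15 came first of them with an adjusted p of 0.678, followed by Adamts4, Adamts12, Mmp17, Mmp24 and Adamts7. Adamts20, another versican protease, went the other way, with a difference of -0.41 (SE 0.15, unadjusted p = 0.0176). Its 3 lowest arrays were replicate 1 of TAA day 30 at -0.81, replicate 3 of BSS day 30 at -0.77 and replicate 1 of BSS day 30 at -0.75, all rich in rod transcripts, and the difference was -0.11 without such arrays. The remaining genes of this role, Adamts1, Adamts5, Adamts8 and Adamts9, had differences from -0.22 to 0.00. Adamts1 was variable, with an SD of 0.50 over the arrays and a lowest value of -1.35 in replicate 1 of BSS day 30.

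**Figure D2:**
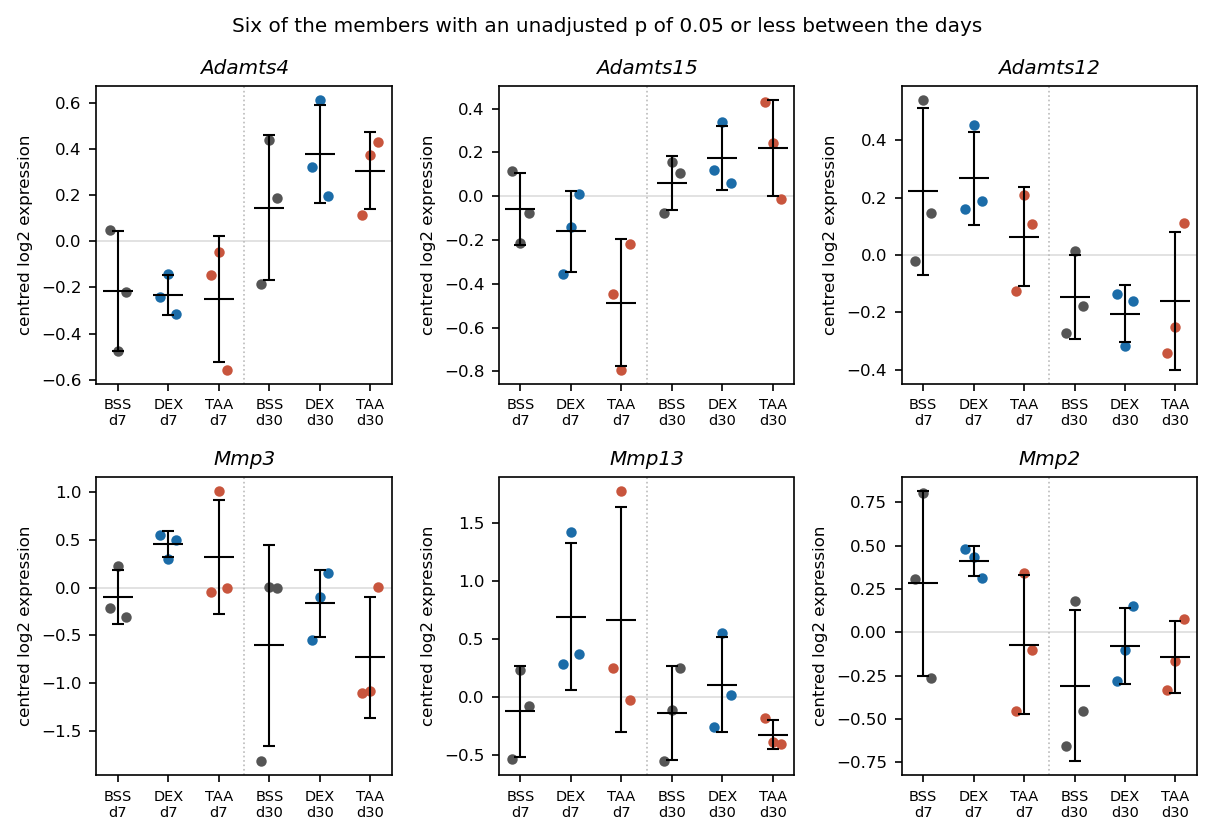
Centred log2 expression of Adamts4, Adamts15, Adamts12, Mmp3, Mmp13 and Mmp2 on each of the 18 arrays, by group. Points are arrays (3 a group), the horizontal mark is the mean and the bar the SD, and the dotted line divides the days. Adamts4 is at or below 0.05 on all day 7 arrays, and the lower means of Mmp3 at day 30 include 3 arrays below -1.

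Among the stromelysins, which cut a broad range of matrix proteins and activate other Mmps, Mmp3 had the largest negative difference of those at an unadjusted p of 0.05 or less. Its values at day 7 ran from -0.31 to 1.01 with a median of 0.23, and at day 30 from -1.82 to 0.15 with a median of -0.10. On 3 arrays, replicate 1 of BSS day 30 and replicates 1 and 2 of TAA day 30, it lay at -1.82, -1.10 and -1.08, and on the other 6 arrays of day 30 between -0.54 and 0.15. The difference was -0.72 (SE 0.25, unadjusted p = 0.0122, adjusted p = 0.211). All 3 low arrays were rich in rod transcripts, and without the 8 such arrays the difference was -0.40 (SE 0.24). Mmp3 was also the 1 member past the thresholds of the study's methods between the days, where 1.01% of genes passed. These ask for a fold of at least 1.5 beside an unadjusted p of at most 0.05, here the p of limma. Mmp10 and Mmp11 had differences of -0.01 and 0.03.

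Of the interstitial collagenases, which cleave fibrillar collagen, Mmp13 had a difference of -0.53 (SE 0.24, unadjusted p = 0.0412, adjusted p = 0.310). At day 7 it ran from -0.53 to 1.77 with a median of 0.25, and at day 30 from -0.55 to 0.55 with a median of -0.18. The ranges overlap over most of their length, and 2 arrays, replicate 2 of DEX day 7 at 1.42 and replicate 2 of TAA day 7 at 1.77, stood above the rest. In BSS arrays the difference was -0.01, in Dex arrays -0.59 and in TAA arrays -0.99 (SE 0.41 each). Mmp1a, Mmp1b and Mmp8 had differences of -0.15, -0.01 and -0.13. Mmp1a and Mmp1b are close copies of each other, so signal could be shared between their probe sets and their values are uncertain.

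The gelatinases cut denatured collagen and the type IV collagen of basement membranes. Mmp2 ran from -0.46 to 0.80 at day 7 with a median of 0.32, and from -0.65 to 0.18 at day 30 with a median of -0.17. Its difference was -0.38 (SE 0.15, unadjusted p = 0.0235, adjusted p = 0.263), with -0.43 and -0.34 for its probe sets. Mmp2 is a product of stromal cells, and 10 fibroblast and stroma genes moved with it: 9 of the 10 were lower at day 30, 6 past the unadjusted threshold and 0 after adjustment, with a median of -0.34. Their mean ran from -0.55 to 0.46 at day 7 and from -0.56 to 0.10 at day 30, and its lowest array, replicate 1 of BSS day 30, was also the lowest of Mmp2. Their part in the result was not tested. Mmp9, the gelatinase of leukocytes, had a difference of -0.16 (SE 0.18) with a highest value of 1.36 in replicate 2 of DEX day 7, and a difference of -0.02 without that array.

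Among the membrane-type Mmps, which work at the cell surface, Mmp14 is the chief activator of Mmp2, and its difference was -0.03 (SE 0.08). Mmp16, named after its values were seen, and Mmp24 had small negative differences of -0.17 (SE 0.06) and -0.10 (SE 0.04) at unadjusted p of 0.0151 and 0.0208. The 4 probe sets of Mmp16 disagreed, from -0.55 to 0.10. Mmp17 had -0.04. In the last set of Mmps, Mmp7, Mmp19, Mmp20 and Mmp23 lay between -0.13 and 0.05. Mmp12, the macrophage elastase, was singled out after its values were seen, since its SD was the highest of all members. Its difference was -0.72 (SE 0.34, unadjusted p = 0.0532). Replicate 3 of BSS day 30 at -0.70 and replicate 1 of TAA day 30 at -0.58 were low. The 2 lowest arrays were replicate 2 of TAA day 30 at -2.98 and replicate 1 of BSS day 30 at -1.32. On those 2 arrays the mean of 9 macrophage and microglia genes was also lowest, at -0.83 and -0.34, whereas over the 18 arrays it otherwise ran from -0.27 to 0.40. Of these 9 genes, 7 were lower at day 30, 2 past the unadjusted threshold, and their part in the value of Mmp12 was not tested. Without the arrays rich in rod transcripts, which include both, the difference of Mmp12 was 0.02 (SE 0.24).

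**Figure D3:**
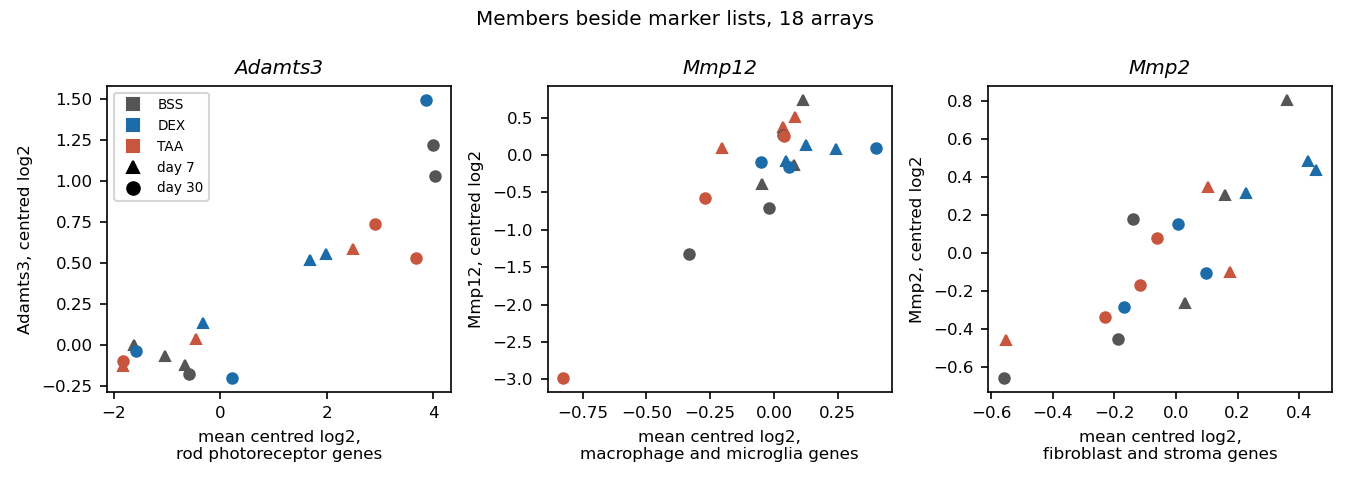
Centred log2 expression of Adamts3, Mmp12 and Mmp2 (y axes) against the mean centred log2 expression of rod, macrophage and stroma marker genes (x axes) on the 18 arrays. Triangles are day 7, circles day 30, and colors are treatments. Adamts3 is above 0.51 on the 8 arrays rich in rod transcripts and below 0.14 on the other 10, and the lowest Mmp12 value, -2.98, is on the array with the lowest macrophage mean.

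The remaining Adamts proteases gave a mixed picture. Adamts12, which cuts the cartilage matrix protein Comp, had a difference of -0.35 (SE 0.09, unadjusted p = 0.00109, adjusted p = 0.0948), and was named after its values were seen. Its values ran from -0.13 to 0.54 at day 7 and from -0.34 to 0.11 at day 30, so the ranges overlap. Its probe sets disagreed, at -0.68 and -0.03, and without the rod-rich arrays the difference was -0.18. Adamts7, its closest relative, had -0.18 (SE 0.06, unadjusted p = 0.00794), and -0.21 without those arrays. Adamts6, Adamts10, Adamts16, Adamts18 and Adamts19 lay between -0.10 and 0.08. Adamts3, a procollagen N-proteinase and also singled out after its values were seen, had a difference of 0.33 (SE 0.24). It lay between 0.52 and 1.495 on the 8 arrays rich in rod transcripts and between -0.20 and 0.14 on the other 10. It was thus high in 3 arrays of day 7 and 5 of day 30, and with the rod mean as a covariate its difference was -0.02 (SE 0.12).

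Of the Adamts-like proteins, Adamtsl2, which binds fibrillin, had a positive difference of 0.20 (SE 0.08, unadjusted p = 0.0247). Adamtsl4, needed for the fibrillin fibers that hold the lens, had a negative one of -0.32 (SE 0.11, unadjusted p = 0.0111). Adamtsl1, Adamtsl3 and Adamtsl5 lay between -0.13 and 0.01.

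The Timps did not pass either threshold. Timp1, the inducible inhibitor, ran from -0.63 to 1.12 at day 7 and from -0.998 to 0.79 at day 30, with a difference of -0.25 (SE 0.26). It was -0.11 without replicate 1 and -0.41 without replicate 3 of BSS day 30. Its values were as far apart within a group as between days: the TAA arrays of day 7 were at -0.63, 1.12 and 0.54, and the BSS arrays of day 30 at -0.998, -0.37 and 0.79. Timp2, which also helps Mmp14 to activate Mmp2, had a difference of -0.13 (SE 0.06, unadjusted p = 0.0589). Timp3 had an SD of 0.14 over the arrays, near the middle of all genes at the 50.3rd percentile. Its difference was -0.07 (SE 0.07, 95% interval -0.21 to 0.08), and of its 4 probe sets 1 gave -0.27 and the others were within 0.01 of 0. Timp4 had -0.08 (SE 0.14), a sign that was turned by quantile normalization (0.02), by leaving out the rod-rich arrays (0.15) and by the rod covariate (0.08). Mmp14, at -0.03, was likewise turned to 0.08 without the rod-rich arrays.

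**Figure D4:**
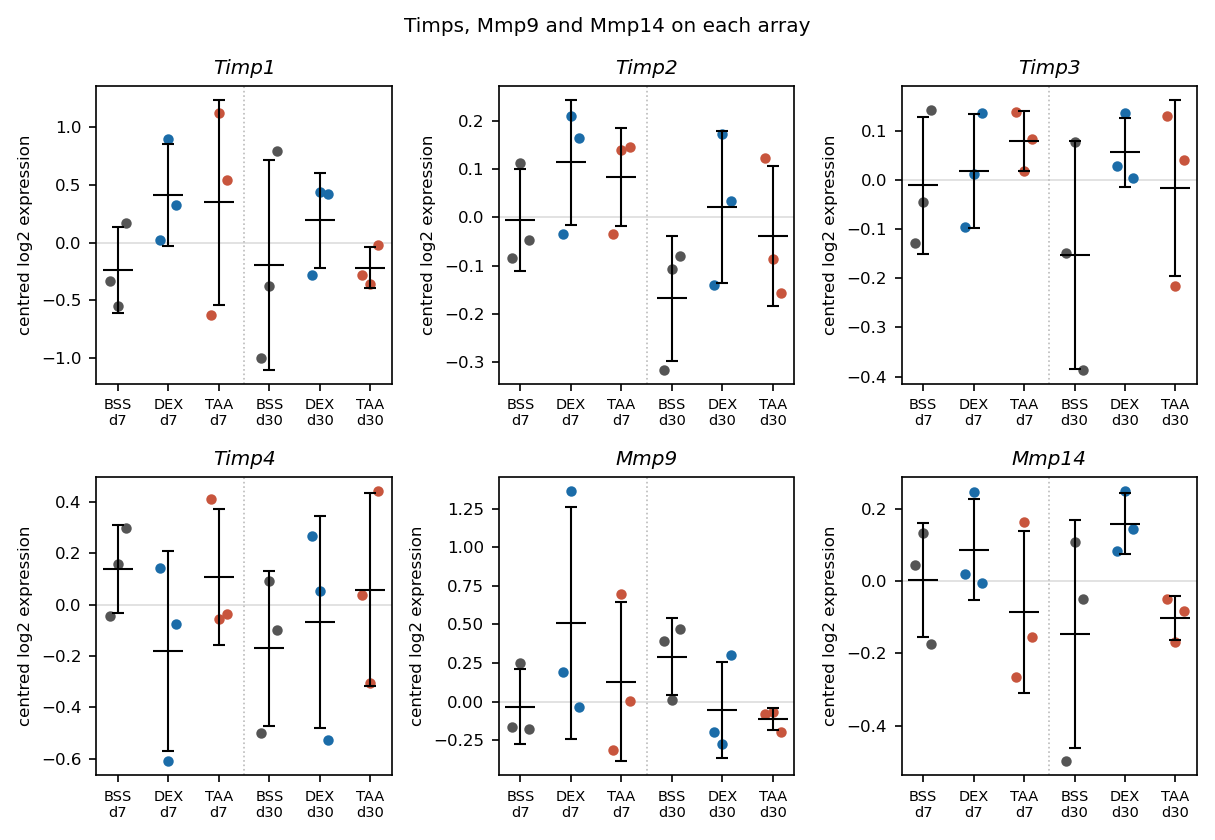
Centred log2 expression of Timp1, Timp2, Timp3, Timp4, Mmp9 and Mmp14 on each of the 18 arrays, by group. Points are arrays (3 a group), the horizontal mark is the mean and the bar the SD. Timp1 spans -0.998 to 1.12 with wide bars in most groups, while Timp3 stays between -0.39 and 0.14.

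Steroid effects were compared with BSS on the same day, so Dex and TAA of a day share 3 control arrays and their values are not independent of each other. In limma, 0 of 42 members were called in any of the 4 comparisons, where 0% of all genes were called except after TAA at day 7 (0.0055%). At an unadjusted p of 0.05 or less, 0 members were counted after Dex at day 7 (1.83% of all genes), 3 after TAA at day 7 (4.23%), 4 after Dex at day 30 (4.70%) and 1 after TAA at day 30 (2.57%). No member passed the thresholds of the study's methods in these comparisons, where between 0.0989% and 0.583% of genes did. Only the cut-offs are the study's: they were applied to limma's p and to means of probe sets, whereas the study used unpaired t-tests on probe sets. The precision differed between members: the 95% interval lay within a 1.5-fold change either way for 31 members after Dex and 28 after TAA at day 7, and for 23 and 29 at day 30. It was widest for Mmp12, from -1.31 to 1.24 after Dex at day 7.

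**Figure D5:**
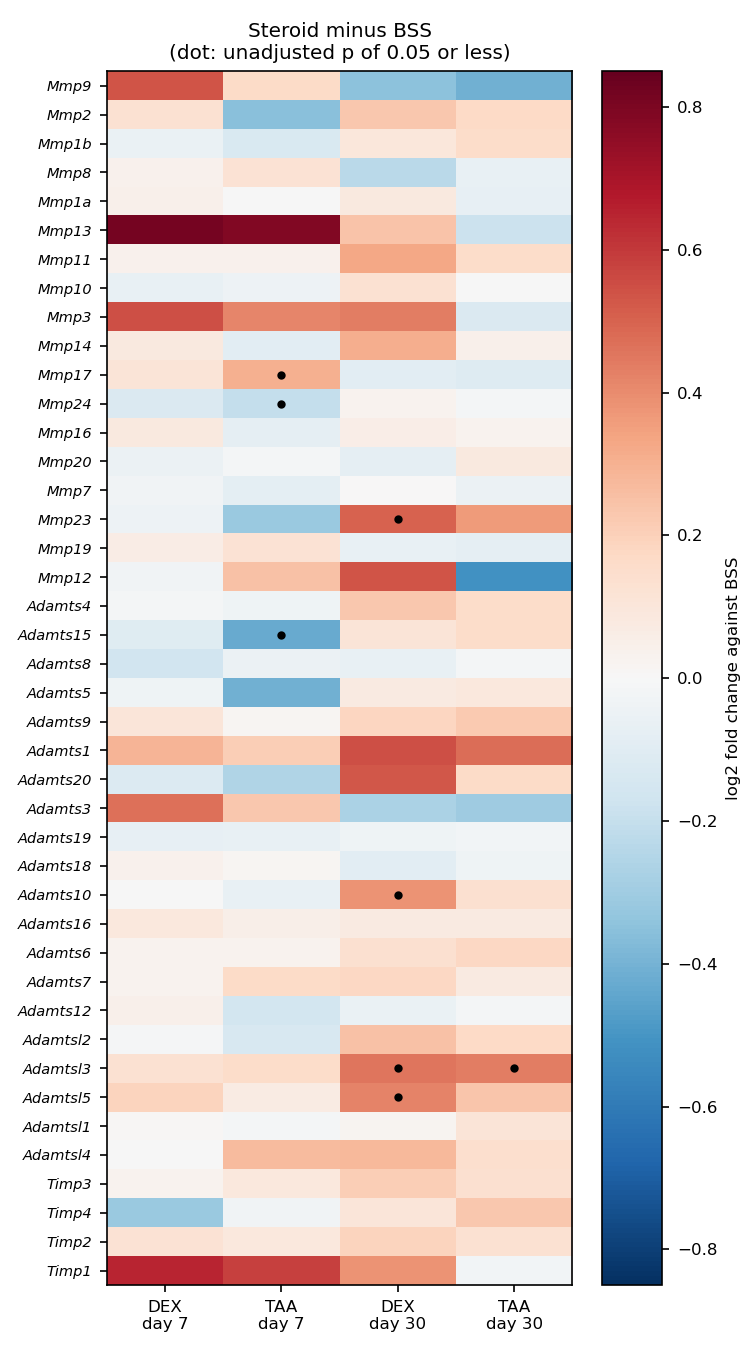
Log2 fold change of each steroid against BSS on the same day for the 42 members (rows, by role). Red is higher and blue lower than BSS, and dots mark an unadjusted p of 0.05 or less, 8 in all. At day 30 the Dex column holds 32 positive values and the TAA column 25.

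At day 7 the member that stood apart was Mmp17, a membrane-type Mmp held by a lipid anchor. The BSS arrays were at -0.14, 0.06 and -0.24, the DEX arrays between -0.02 and 0.02, and the TAA arrays at 0.28, 0.12 and 0.17. The TAA arrays lay above all BSS and DEX arrays. The difference from BSS was 0.30 (SE 0.08, unadjusted p = 0.00197, adjusted p = 0.991). At day 30 the order was turned, with BSS at 0.13, -0.06 and 0.09 and TAA between -0.11 and 0.00, so that the change in the TAA effect between days was -0.41 (SE 0.11, unadjusted p = 0.00266, adjusted p = 0.968). Adamts15 showed the opposite order, with BSS at 0.12, -0.21 and -0.08 and TAA at -0.45, -0.79 and -0.22 at day 7. That difference was -0.43 (SE 0.15, unadjusted p = 0.0135), and its change to day 30 was 0.59 (SE 0.22, unadjusted p = 0.0160). Mmp24, a membrane-type Mmp of the nervous system, had -0.20 (SE 0.07, unadjusted p = 0.0110) after TAA at day 7, with its 3 TAA arrays between -0.06 and -0.02 and its BSS arrays at 0.28, 0.05 and 0.17. The count of 3 members past the unadjusted threshold after TAA became 1 without replicate 1 of BSS day 7 (1.94% of all genes), 5 without replicate 1 of TAA day 7 (3.61%) and 7 without replicate 3 of TAA day 7 (4.01%). The arrays did not overlap with BSS in 3 members after Dex (9.23% of all genes) and 4 after TAA (11.4%). Other tissues differed between these groups too. After TAA at day 7 all 8 skeletal muscle genes were lower than in BSS, 4 past the unadjusted threshold, with means from -0.63 to -0.18 against -0.08 to 0.25. All 6 lens genes were lower too, 4 past that threshold, with a median of -1.68 and means from -2.19 to -0.51 against -0.02 to 0.57. All 6 surface epithelium genes were lower, 0 past it, with a median of -2.37 and means from -2.70 to -0.34 against -1.55 to 1.76. All 9 rod genes were higher after Dex and also after TAA, 0 past that threshold in either. Their means ran from -0.33 to 1.99 after Dex and from -1.82 to 2.49 after TAA, against -1.61 to -0.66. After Dex all 7 endothelial genes (median 0.36) and 9 of 10 stroma genes (median 0.19) were higher as well, 0 past it. Their part in the values of the members was not tested.

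The members with the largest positive differences at day 7, Mmp13, Timp1 and Mmp3 after either steroid, did not pass the unadjusted threshold. Mmp13 had positive differences of 0.81 after Dex (SE 0.41, 95% interval -0.06 to 1.69) and 0.79 after TAA (SE 0.41). The BSS arrays were at -0.53, 0.24 and -0.07, the DEX arrays at 0.28, 1.42 and 0.37, and the TAA arrays at 0.25, 1.77 and -0.02. All 3 DEX arrays lay above the BSS arrays, whereas those of TAA overlapped with them. Timp1 had 0.65 after Dex and 0.58 after TAA (SE 0.44 each), and Mmp3 had 0.55 and 0.42 (SE 0.44 each). Mmp9 had 0.54 after Dex (SE 0.31), where replicate 2 lay at 1.36, and 0.16 after TAA. On replicate 2 of DEX day 7 and of TAA day 7, Mmp9, Mmp13 and Timp1 all had their 2 highest values. Mmp2 had 0.13 after Dex and -0.35 after TAA (SE 0.26 each), Mmp14 0.09 and -0.09 (SE 0.14 each), and Timp3 0.03 and 0.09 (SE 0.12 each).

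At day 30 the differences leaned upward after Dex. Of the 42 members 32 had a higher value than BSS, against 53.7% of all genes, with a median of 0.13 against 0.01, and all 5 Adamts-like genes and all 4 Timps were among them. After TAA 25 were higher, against 54.3% of all genes, with a median of 0.08 against 0.01. Neither lean is given without the rod-rich arrays or without replicate 1 of BSS day 30. That array held the lowest value of 16 members and is a control in both comparisons. Without it, 1 member passed the unadjusted threshold after Dex in place of 4 (1.53% of all genes), and 1 without replicate 2 of DEX day 30 (2.35%). The count was 7 without replicate 1 of DEX day 30 (7.12% of all genes) and 10 without replicate 2 of BSS day 30 (15.7%). The 4 after Dex were Mmp23, Adamtsl3, Adamtsl5 and Adamts10. Adamts10, which acts on fibrillin and is mutated in a hereditary lens disorder, was at -0.31, 0.00 and -0.11 after BSS, 0.09, 0.49 and 0.15 after Dex, and -0.11, 0.02 and 0.08 after TAA. Its 3 DEX arrays lay above both other groups, with a difference from BSS of 0.38 (SE 0.11, unadjusted p = 0.00429, adjusted p = 0.934). It was the fourth of these by size and named after its values were seen.

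Mmp23, an Mmp with its own membrane anchor, had 0.50 (SE 0.19) after Dex, from BSS arrays at -0.59, -0.12 and -0.29 and DEX arrays at -0.07, 0.53 and 0.05. Adamtsl5 had 0.42 (SE 0.16), which was 0.24 without replicate 1 of BSS day 30 and 0.07 without the rod-rich arrays. Adamtsl3 had 0.46 after Dex and 0.43 after TAA (SE 0.20 each), with BSS at -0.60, -0.31 and -0.26 and all 6 steroid arrays between -0.05 and 0.18. The Timps had 0.38, 0.19, 0.21 and 0.10 after Dex for Timp1 to Timp4, and -0.02, 0.13, 0.14 and 0.23 after TAA, none at an unadjusted p of 0.05 or less. The rod mean of BSS day 30 was 4.04, -0.60 and 3.99, and all 9 rod genes were lower in either steroid group than in BSS, 0 past the unadjusted threshold. Their means overlapped with BSS, from -1.59 to 3.86 after Dex and from -1.83 to 3.68 after TAA. The direction of these retinal transcripts was opposite to that of most members. Without the rod-rich arrays, which leaves 1 array of BSS day 30, 1 member passed the unadjusted threshold after Dex (2.84% of all genes) and 0 after TAA (2.14%), and with the rod mean as a covariate 4 (4.27%) and 0 (3.13%) did. Vessel and stroma genes moved in the same direction as the members: after Dex all 7 endothelial genes were higher than in BSS, 3 past the unadjusted threshold, with means from 0.00 to 0.20 against -0.72 to 0.15, and 9 of 10 stroma genes were, 2 past it, with means from -0.17 to 0.10 against -0.56 to -0.14. After TAA all 7 endothelial genes and 8 of 10 stroma genes were higher as well, 0 past that threshold. Of 9 macrophage and microglia genes, 8 were higher after Dex and 0 after TAA. All 6 lens genes were lower after both steroids, 1 past that threshold after TAA. The part of these genes in the values of the members was not tested. The arrays did not overlap with BSS in 5 members after Dex (4.24% of all genes) and 2 after TAA (5.57%).

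Dex and TAA were given at different doses, 10 and 25 μg, so the difference between them holds the dose too. At both days 0 members were called, as were 0% of all genes, with 1 member past the unadjusted threshold at each day (2.49% and 1.62% of all genes). These were Mmp17 at day 7, higher by 0.19 after TAA (SE 0.08), and Adamts10 at day 30, lower after TAA with a difference of -0.25 (SE 0.11), which was -0.12 without replicate 2 of DEX day 30. Tests of the change between days gave 1 member for Dex, Adamts10 at 0.39 (2.72% of all genes), and 3 for TAA, Mmp17, Adamts15 and Mmp23 (3.04%), with adjusted p of 0.968 or more.

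The partners of these proteases were counted from 3 lists. Between the days, 0.429% of all genes were called, and 9.17% had lower and 6.10% higher values past the unadjusted threshold. The lists were not counted again without the rod-rich arrays. Of 17 other matrix and shedding proteases, Ctsk, the collagen-degrading cathepsin K, fell by 0.66 from day 7 to day 30 (SE 0.13, adjusted p = 0.0359). Lower values past the unadjusted threshold were found in 6 of the 17, and higher ones in 0. Of 26 matrix substrates, Lamc1, a chain of the laminins of basement membranes, fell by 0.39 (SE 0.08, adjusted p = 0.0389), and 6 had lower and 0 higher values. Of 21 protease regulators 0 were called, 5 had lower and 1 higher values, and the smallest p belonged to Ets1, a transcription factor of Mmp genes, at -0.36 (SE 0.11), and to Plaur, the urokinase receptor, at -0.28 (SE 0.09). Col1a1, Col1a2, Col3a1 and Dcn belong both to the substrates and to the stroma markers above. In the comparisons with BSS 0 genes of these lists were called. After TAA at day 7, 4 of the 21 regulators had higher values past the unadjusted threshold, against 2.23% of all genes, and 0 had lower ones. They were A2m, Thbs1, Fosl1 and Lcn2, a secreted protein that binds Mmp9, whose difference of 4.27 (SE 1.65, unadjusted p = 0.0209, adjusted p = 0.991) was the largest in the lists. Those with the smallest unadjusted p were, after TAA at day 7, A2m, a broad protease inhibitor, at 0.87 (SE 0.32), and Adam8, a sheddase of leukocytes, at 0.53 (SE 0.18). After Dex it was Fn1, fibronectin, at 0.50 (SE 0.17) at day 7, and Fbn2, a fibrillin, at 0.70 (SE 0.26) at day 30, where 5 of the 26 substrates had higher values past the unadjusted threshold (2.85% of all genes).

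The genes most like 3 of the members over the 18 arrays were found by Pearson's r across the whole table, as a description. For Timp1 they were Cthrc1 (r = 0.834), Chil1 (r = 0.832) and Nedd4 (r = 0.800). For Timp3 they were Tspo (r = 0.864), Tmem160 (r = 0.851) and Decr1 (r = 0.846). For Adamts15 they were Gas1 (r = 0.885), Kdf1 (r = 0.805) and Adcy2 (r = 0.801). These r share the arrays and their makeup of cells.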

How the data were processed

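The authors normalized the arrays by RMA in GeneSpring GX 12.5, relative to the median across samples. The deposited log2 values cover 45101 probe sets, whose medians over 18 arrays do not exceed 5e-07 in size. Arrays have no read depth, and their number limits the precision. The labels name each array as a biological replicate. By the study's methods, 4 animals were injected per group, and the 3 samples of highest RNA quality were put on arrays. Of the probe sets, 34958 carried 1 gene symbol, 932 several and 9211 none. The release of the probe set definition was not known.

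Probe sets of a symbol were averaged and the 18194 genes were fitted with limma 3.58.1 under R 4.3.3, with 1 mean per group, 12 residual and 2.64 prior degrees of freedom, two-sided, and Benjamini-Hochberg adjustment over all genes. No filter on low values was possible. The fit was tested on simulated data. Samples were grouped by the labels. The members and lists were chosen with earlier results of these data known. Named were all Timps, Mmp2, Mmp9, Mmp14, every called member, and up to 3 members per direction and comparison with the largest difference at an unadjusted p of 0.05 or less. Alternatives covered probe sets, prior, weights, scaling, filter, replicate block, the methods' tests and each array left out. The rod covariate, the omission of rod-rich arrays and the within-treatment values were chosen after seeing the data. Plots used Python 3.11.15 with matplotlib 3.10.9.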

Additional observations from a re-analysis of the deposited data

How the results depend on the processing

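The 1 member called between the days became 8 with array weights (1543 of all genes called against 78), 0 with the replicate block, 0 with single probe sets, 0 without the arrays rich in rod transcripts, and 0 to 3 when single arrays were left out. The 3 were called without replicate 2 of BSS day 30, where 808 of all genes were called. The called member was Adamts15 in place of Adamts4 with quantile normalization and without replicate 3 of TAA day 30, and Adamts7 without replicate 1 of DEX day 7. Members at an unadjusted p of 0.05 or less numbered 12, or 3 without the rod-rich arrays (10 arrays left, with 1 in some groups, whose spread is assumed like that of the others) and 7 with the rod covariate. The causes were not tested. The Adamts4 difference kept its direction in 27 alternatives, from 0.41 to 0.66, with adjusted p from 0.014 to 0.676 and 9 under 0.05. The differences of Timp4 and Mmp14 changed sign: Timp4 was -0.081 and became 0.022 with quantile normalization, 0.151 without the rod-rich arrays and 0.077 with the rod covariate. Mmp14 was -0.031 and became 0.082 and 0.013 with the latter, and -0.073 to 0.028 when single arrays were left out. In the steroid comparisons the count of called members was 0 under every alternative run. When single arrays were left out, members at an unadjusted p of 0.05 or less numbered 0 to 2 after Dex and 1 to 7 after TAA at day 7, and 1 to 10 and 0 to 5 at day 30, where both upper counts were reached without replicate 2 of BSS day 30. Without that array the F-test over the 6 groups counted 10 members in place of 6, and without replicate 1 of BSS day 7 or of TAA day 7 it counted 3. Leaving out replicate 2 of BSS day 30 also raised the number of all genes called between the days from 78 to 808. The higher counts without it are therefore not read as particular to the members. Replicate numbers did not pair the arrays: over 45 pairs of the same number the deviations from group means correlated from -0.755 to 0.615, with a median of -0.063 against 0.059 over 90 other pairs. The replicate block moved the genes called between the days from 78 to 52.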
